A study of Sus scrofa with 4 samples.

Results

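The enzymes at the entry and the exit of ethanol breakdown were compared in pig embryos: ADH4, ADH5 and CYP2E1, which act on alcohols, and ACSS1 and ACSS2, which join acetate to coenzyme A. They were taken as every array probe that the platform annotation gives 1 of these 5 gene symbols, which selected 9 of 43794 probes. ADH5 has 4 of them, ACSS1 has 2, and ADH4, CYP2E1 and ACSS2 have 1 each. Each of 4 two-colour arrays held amplified RNA of 1 pool of 10 expanded blastocysts cultured with ethanol and 1 pool of 10 blastocysts cultured with no added compound. The ethanol group was kept from the zygote for 7 days in PZM3, a pig embryo culture medium, with 0.2% ethanol, and the labels give sealed glass vials as the culture vessel. Ethanol RNA carried Cy5 on arrays 1 and 3 and Cy3 on arrays 2 and 4. A pool of whole embryos mixes cell lineages and holds only embryos that became blastocysts, and in such bulk RNA fewer cells of a type and less RNA per cell cannot be told apart.

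Ethanol is oxidised to acetaldehyde by cytosolic alcohol dehydrogenases, by the microsomal cytochrome P450 CYP2E1 and, to a small extent, by catalase. Aldehyde dehydrogenases turn acetaldehyde into acetate, and short-chain acyl-CoA synthetases then make acetyl-CoA, ACSS2 in the cytosol and nucleus and ACSS1 in the mitochondrial matrix. In adults the first step takes place mainly in the liver, where ADH4 and CYP2E1 are abundant, while ADH5 is made in most tissues. In the Sscrofa11.1 RefSeq gene table ADH4 and ADH5 are direct neighbours, and ADH1C, of the same family and a few genes away, has no probe under that name.

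The 153 negative-control spots of each array gave a background threshold for each dye, their 95th percentile, and a probe with a higher spot signal was called above background in that channel. This threshold lay between 136 and 180 intensity units in Cy3 and between 67 and 91 in Cy5. The Cy3 channel had 70.4% to 73.5% of all probes above it and the Cy5 channel 45.3% to 57.3%. Probes above background for either kind of RNA on 3 or more of the 4 arrays were kept, which held for 25899 probes and for 7 of the 9 member probes. The kept probe of a gene with the highest mean intensity is called its lead probe, and it gives the gene's value. Ratios are log2 of ethanol over control, and fitted values come from limma with a dye coefficient for each probe. They are given with the moderated standard error (SE) of limma over 4 arrays, which draws the variance of each probe towards that of all kept probes. Before the dye term, ratios turned to ethanol over control correlated across kept probes at 0.40 and 0.44 between arrays of the same dye orientation and at -0.39 to -0.29 between arrays of opposite orientation. A ratio on a single array therefore carries a dye part as well as any difference between the pools. The labels do not say whether the pools came from separate cultures. The errors therefore refer to these 4 pairs of pools only, and through moderation they also rest on the spread of the other kept probes. All 6 trophectoderm marker genes had a kept probe. Of the inner cell mass list POU5F1 had a kept probe, SOX2 had a probe that was not kept, and NANOG had no probe under that name. The liver marker ALB had a probe that was not kept, and APOA1, which is also made in intestine, had 1 that was.

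Among ADH4, ADH5 and CYP2E1, ADH5 was the one measured far from background, on its lead probe only, and no difference between the groups was called. ADH5 encodes the class III alcohol dehydrogenase, which oxidises formaldehyde bound to glutathione and has a low affinity for ethanol. On its lead probe, EMPV1_21101, the control signal was 29.2, 36.4, 40.6 and 40.4 times the background threshold on arrays 1 to 4. The ethanol signal was 25.4, 36.3, 55.9 and 33.2 times the threshold on the same arrays. The groups overlapped, and the lowest value of each group came from array 1. The normalized log2 level was 11.97 ± 0.19 (SD, n = 4) in control and 11.95 ± 0.31 (SD, n = 4) in ethanol pools. Ratios on arrays 1 to 4 were -0.20, 0.01, 0.20 and -0.09, with 2 arrays on each side of 0. The fitted ratio was -0.02 (SE 0.09, limma adjusted p = 0.994), and its 95% interval ran from a 1.19-fold lower to a 1.15-fold higher level with ethanol. Its sign was not settled by these arrays, since it was 0.08 without array 1 and -0.12 without array 3.

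The other 3 ADH5 probes were close to background. Probe 2, EMPV1_16716, was above the threshold in all 8 channels, by 1.33 to 2.04 times. Its ratios followed the dye, at 0.24 and 0.12 on the arrays where Cy5 marked the ethanol pool and at -0.33 and -0.11 where Cy3 did, and the fitted ratio was -0.02 (SE 0.08). Probe 3, EMPV1_42159, exceeded the threshold on 3 arrays for control and on 4 for ethanol RNA. Its ratios of 0.03, 0.08, 0.03 and 0.28 all lay above 0, a pattern met by 1 of the 7 kept member probes and by 9.17% of all kept probes. The fitted ratio of probe 3 was 0.10 (SE 0.07, limma adjusted p = 0.885), and on array 4, where it was largest, the control signal was 0.787 times the threshold. Probe 4, EMPV1_14469, was above the threshold in 1 control and 1 ethanol channel and was not kept. The 3 kept probes of ADH5 gave fitted values between -0.02 and 0.10 with overlapping 95% intervals. Probes 2 and 3 lay too near background for this overlap to check the value of the lead probe.

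ADH4 encodes the class II alcohol dehydrogenase, which acts on ethanol at high concentration and on retinol. Its probe, EMPV1_06778, was at the edge of detection in control embryos. The control signal was 1.24, 1.04, 1.24 and 1.28 times the threshold on arrays 1 to 4. The ethanol signal was 0.898, 1.26, 1.07 and 1.29 times the threshold, so that the ethanol channel of array 1 was not above background. Ratios were -0.16, 0.01, 0.01 and -0.15, which did not separate by dye. The fitted ratio was -0.07 (SE 0.08, limma adjusted p = 0.957), or -0.13 (SE 0.12) with a normexp offset of 0.

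CYP2E1 encodes the ethanol-inducible P450 of the endoplasmic reticulum, whose protein is known to be stabilised by ethanol in liver. Its probe, EMPV1_14488, was above background in all 8 channels. Control signals were 3.14, 2.37, 4.68 and 2.80 times the threshold on arrays 1 to 4, and ethanol signals were 2.18, 3.25, 3.10 and 3.26 times. The highest control value and the lowest ethanol value were both from arrays that paired Cy5 with the ethanol pool. Ratios were -0.32 and -0.54 there and 0.19 and 0.18 with the dyes swapped, so the sign changed with the dye. The dye coefficient, the part of the ratio that stayed with Cy5, was -0.31, larger in size than the fitted ratio of ethanol over control, -0.12 (SE 0.07, limma adjusted p = 0.839). The 95% interval ran from 1.24-fold lower to 1.04-fold higher with ethanol. With 1 array left out the fitted CYP2E1 ratio stayed below 0, at -0.18 to -0.07.

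**Figure D1:**
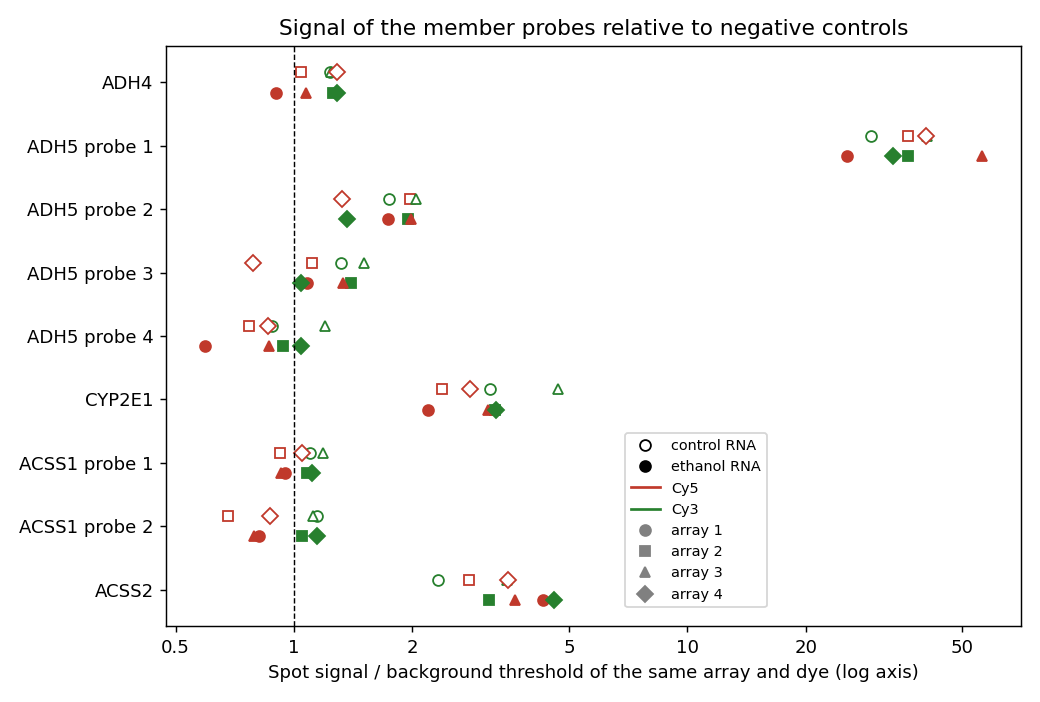
Spot signal of the 9 member probes divided by the background threshold of the same array and dye (log axis), with open symbols for control and filled symbols for ethanol RNA, the array by shape and the dye by colour. ADH5 probe 1 lies at 25.4 to 55.9 times the threshold, CYP2E1 and ACSS2 at 2.18 to 4.68 times, and the points of ADH4 and of both ACSS1 probes lie near 1.

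The mitochondrial enzyme of acetate activation, ACSS1, was also at the edge of detection. Its lead probe, EMPV1_04344, had control signals of 1.10, 0.923, 1.18 and 1.05 times the threshold and ethanol signals of 0.947, 1.08, 0.925 and 1.11 times. It exceeded the threshold on 3 arrays for control RNA and on 2 for ethanol RNA. Its ratios were 0.13, -0.08, -0.12 and -0.10, and the fitted ratio was -0.04 (SE 0.08, limma adjusted p = 0.986). The second ACSS1 probe, EMPV1_33520, was above background in 2 control and 2 ethanol channels, each of them Cy3, and was not kept. Its ratios were -0.16 and -0.27 on arrays 1 and 3 and 0.37 and 0.29 on arrays 2 and 4, where the dyes were swapped. Neither probe therefore gives more than a level near background for ACSS1.

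ACSS2, the nuclear and cytosolic acetyl-CoA synthetase and a known target gene of the sterol-regulated SREBP factors, had the largest fitted ratio of the 7 kept probes, and it did not pass the test. Its single probe, EMPV1_42699, was above background in all 8 channels. Control signals were 2.32, 2.79, 3.49 and 3.51 times the threshold on arrays 1 to 4, and ethanol signals were 4.28, 3.14, 3.64 and 4.58 times. The ethanol values of arrays 1, 3 and 4 lay above every control value, and that of array 2 lay among them. The normalized log2 scale takes out the overall dye and array scale, but not the dye part of a single probe. On it control levels were 7.87, 8.39, 8.33 and 8.71 and ethanol levels 8.95, 8.28, 8.45 and 9.08, and the groups overlapped. Ratios were 1.09, -0.11, 0.12 and 0.37, that is 2.12-fold on array 1 and between 0.928-fold and 1.30-fold on the others. The mean ratio was 0.60 with ethanol in Cy5 and 0.13 with ethanol in Cy3, and the dye coefficient was 0.23. On array 1 the control level was the lowest of the 4 and the ethanol level the second highest. The authors' deposited table gave 1.11, -0.12, 0.16 and 0.37 for the same arrays once turned to ethanol over control.

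The fitted ACSS2 ratio was 0.37 (SE 0.17), a 1.29-fold higher level with ethanol, with a 95% interval from 1.04-fold lower to 1.74-fold higher (limma adjusted p = 0.731, unadjusted p = 0.0801). The value rested on array 1. It was 0.13 (SE 0.13) without that array, and 0.49, 0.61 and 0.25 without arrays 2, 3 and 4. The residual standard deviation of the ACSS2 probe was 0.54, against a median of 0.15 over all kept probes. The moderated SE of 0.17 and the 95% interval are therefore narrower than the spread of this probe alone would give. ACSS2 and ACSS1 were also compared on the same array. The ACSS2 ratio exceeded the ACSS1 ratio by 0.96 on array 1, 0.24 on array 3 and 0.47 on array 4, and on array 2 the difference was -0.03. The mean difference was 0.41 ± 0.42 (SD, n = 4). An exact sign permutation test over 4 arrays cannot give a two-sided p below 0.125, so this difference is given as values only, and the ACSS1 signal in it was close to background.

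**Figure D2:**
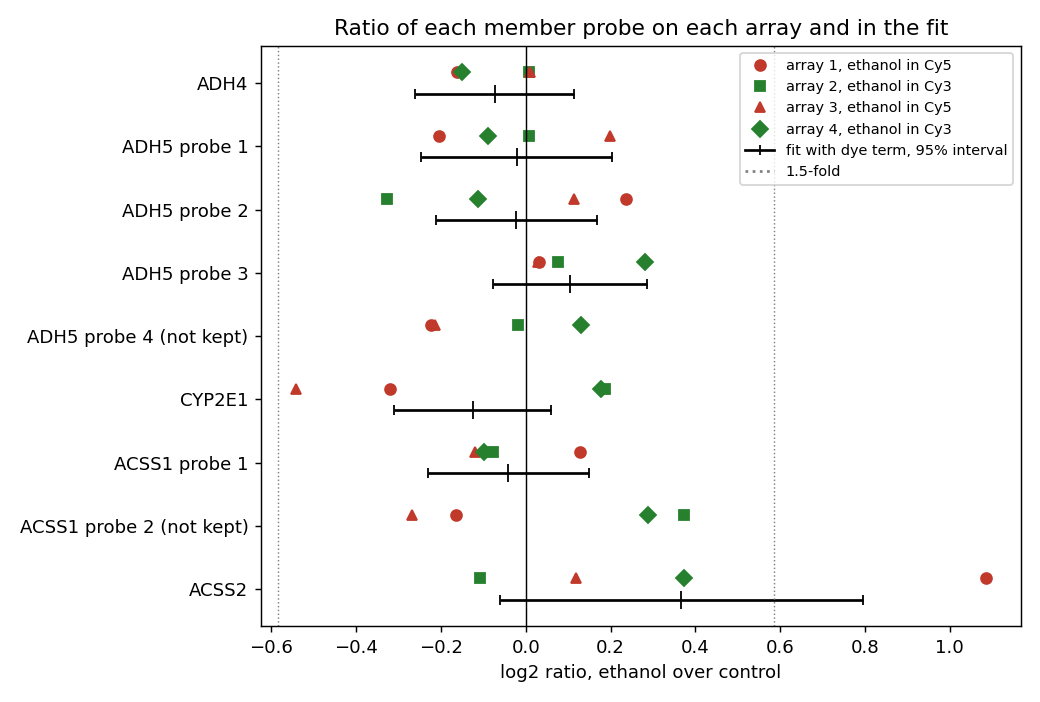
Log2 ratio of ethanol over control for each member probe on each array (coloured by the dye of the ethanol RNA) and, in black, the fitted value with its 95% interval for the 7 kept probes. Dotted lines mark a 1.5-fold difference, which the intervals of 6 kept probes do not reach and that of ACSS2 passes.

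Across the members, 0 of 7 kept probes were called at an adjusted p under 0.05, as were 0 of all 25899 kept probes (0%). At an unadjusted p under 0.05 the count was again 0 of 7, against 7.27% of all kept probes. The 95% interval lay within a 1.5-fold difference in either direction for 6 of 7, against 95.3% of all kept probes, the exception being ACSS2. These counts are near the background of the array. ADH4, ACSS1 and ADH5 probes 2 and 3 had signals near background, so a narrow interval there does not show an unchanged transcript. With a normexp offset of 0 the SE was 0.13 in place of 0.07 for ADH5 probe 3, and 0.13 in place of 0.08 for ACSS1. In the plot of leave-one-out values the 3 alcohol-oxidising enzymes and ACSS1 stayed between -0.18 and 0.08 whichever array was omitted.

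**Figure D3:**
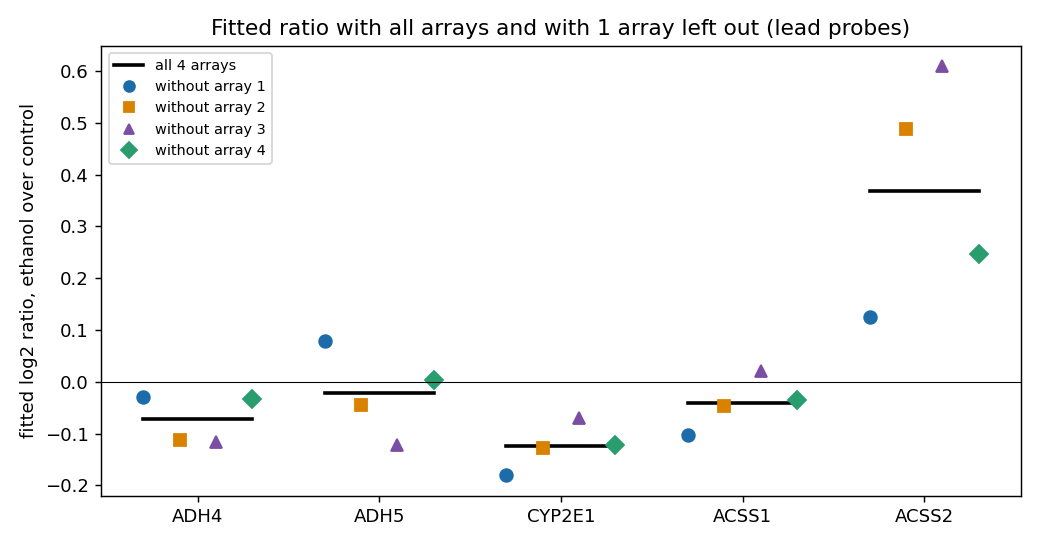
Fitted log2 ratio of ethanol over control for the lead probe of each gene with all 4 arrays (line) and with each array left out in turn (symbols). ACSS2 ranges from 0.13 without array 1 to 0.61 without array 3, and ADH5 and ACSS1 have values on both sides of 0.

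The genes with the most similar pattern were sought over the 8 channel values of the arrays, each centred on its dye mean for the probe, among 7304 other named genes. These correlations are a description of 8 values that share arrays and labelling, and the values given are the highest of 7304. An r over 0.9 was reached by 62 genes for ADH4, 63 for ADH5, 27 for CYP2E1, 7 for ACSS1 and 43 for ACSS2. Only the 3 genes of highest r are named for each enzyme. For ACSS2 they were CD2AP, CTSH and SOCS4, with r of 0.97 for each. For ADH5 they were SEC16B (0.99), RBFA (0.97) and ASXL2 (0.97), and for CYP2E1 they were ZDHHC8, MRPS12 and NOX4, with r of 0.97 for each. ADH4 was followed most closely by GABPB1 (0.99), HCRT (0.99) and PACRGL (0.98), and ACSS1 by BNIPL (0.93), LMBRD2 (0.93) and TTYH2 (0.92). The patterns of ADH4 and ACSS1 came from probes near background. None of these genes is another member.

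The steps between and around the 5 enzymes were described with 59 further pathway genes, of which 36 had a kept probe, 2 had only probes that were not kept and 21 had no probe under the name used. Of the 36 measured genes, 0 were called, 20 lay above 0 (55.6%, against 49.6% of all named genes) and 16 below. Their median ratio was 0.03, against -0.0010 over all 7305 named genes. At an unadjusted p under 0.05 there were 5 of 36 (13.9%), against 8.99% of all named genes. In ethanol oxidation itself CAT, the peroxisomal catalase, had 0.04 (SE 0.09), and ADH1A, ADH1B, ADH1C, ADH6 and ADH7 had no probe under those names. Of the carriers that can pass electrons to microsomal P450 enzymes, POR and CYB5R3 had no probe under those names. CYB5B, the cytochrome b5 of the mitochondrial outer membrane, had ratios of 0.64, 0.20, 0.48 and 0.44 and a fitted value of 0.44 (SE 0.08). CYB5A, the microsomal cytochrome b5, had -0.20 (SE 0.08) on its lead probe, while 4 of its 5 kept probes lay above 0. ESD, the hydrolase that follows ADH5 in formaldehyde removal, had -0.18 (SE 0.08), with both kept probes below 0. The ratios of its lead probe were 0.01, -0.41, 0.22 and -0.53 on arrays 1 to 4, so their sign changed with the dye.

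In aldehyde metabolism 6 of 11 listed genes were measured, 3 above and 3 below 0. ALDH9A1, which prefers aminoaldehydes, had the largest value, with ratios of 0.52, 0.76, 0.84 and 0.70 on arrays 1 to 4 and a fitted value of 0.71. The other 5 measured genes lay between -0.11 and 0.10. ALDH2, ALDH1A1, ALDH1A2, AKR1A1 and AKR1B1 had no probe under those names. In acetate activation ACSS3, a mitochondrial member of the same family, had 0.00 (SE 0.08). The deacetylases SIRT1 and SIRT3, which in mammals activate ACSS2 and ACSS1 respectively, had 0.06 (SE 0.08) and -0.12 (SE 0.12).

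Among other routes to acetyl-CoA, 6 of 9 measured genes lay above 0, and among its users 6 of 9 did, against 49.6% of all named genes. With 1 array left out the median ranged from -0.019 to 0.060 for the routes and from -8.2e-05 to 0.066 for the users. ACAA2, the mitochondrial thiolase, had a fitted ratio of 0.30 (SE 0.08), and FASN, the fatty acid synthase, had 0.25 (SE 0.08). ACLY, which makes cytosolic acetyl-CoA from citrate, had 0.23 (SE 0.11), with ratios of 0.49, 0.33, -0.04 and 0.13. ACAT2, which joins acetyl-CoA units in the cytosol, had 0.28 (SE 0.12), with ratios of 0.97, -0.12, 0.30 and -0.04. ACLY and ACAT2 had their highest ratio on array 1, as ACSS2 did, and so had SLC25A1 (0.63) and CRAT (0.09). All other measured genes of both lists had their highest ratio on another array. Without array 1 ACLY and ACAT2 had 0.09 and 0.11. FASN had ratios of 0.43, -0.11, 0.47 and 0.20 on the single arrays, and a fitted value of 0.26 without array 1. HMGCS1, the HMG-CoA synthase of cholesterol synthesis, had -0.24 on array 1 and a fitted value of -0.02 (SE 0.15). Markers of cumulus and granulosa cells, which can stay attached to cultured embryos, were measured for 6 of 7 genes and lay between -0.24 and 0.08, with a median of 0.05. On array 1, where ACSS2 had its highest ratio, these 6 markers ranged from -1.22 (STAR) to 0.33 (HAS2), with 4 of them above 0. The 6 trophectoderm markers ranged from -0.42 (TEAD4) to 1.43 (KRT18) on array 1, with 3 above 0. KRT18 and KRT8, keratins of the trophectoderm, had 1.43 and 1.29 there, 1.10 and 0.59 on array 3, -0.78 and -1.03 on array 2 and -1.56 and -1.16 on array 4, so their sign changed with the dye, and their fitted ratios were 0.05 (SE 0.14) and -0.08 (SE 0.13). The part of these markers in the ACSS2 ratio was not tested.

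**Figure D4:**
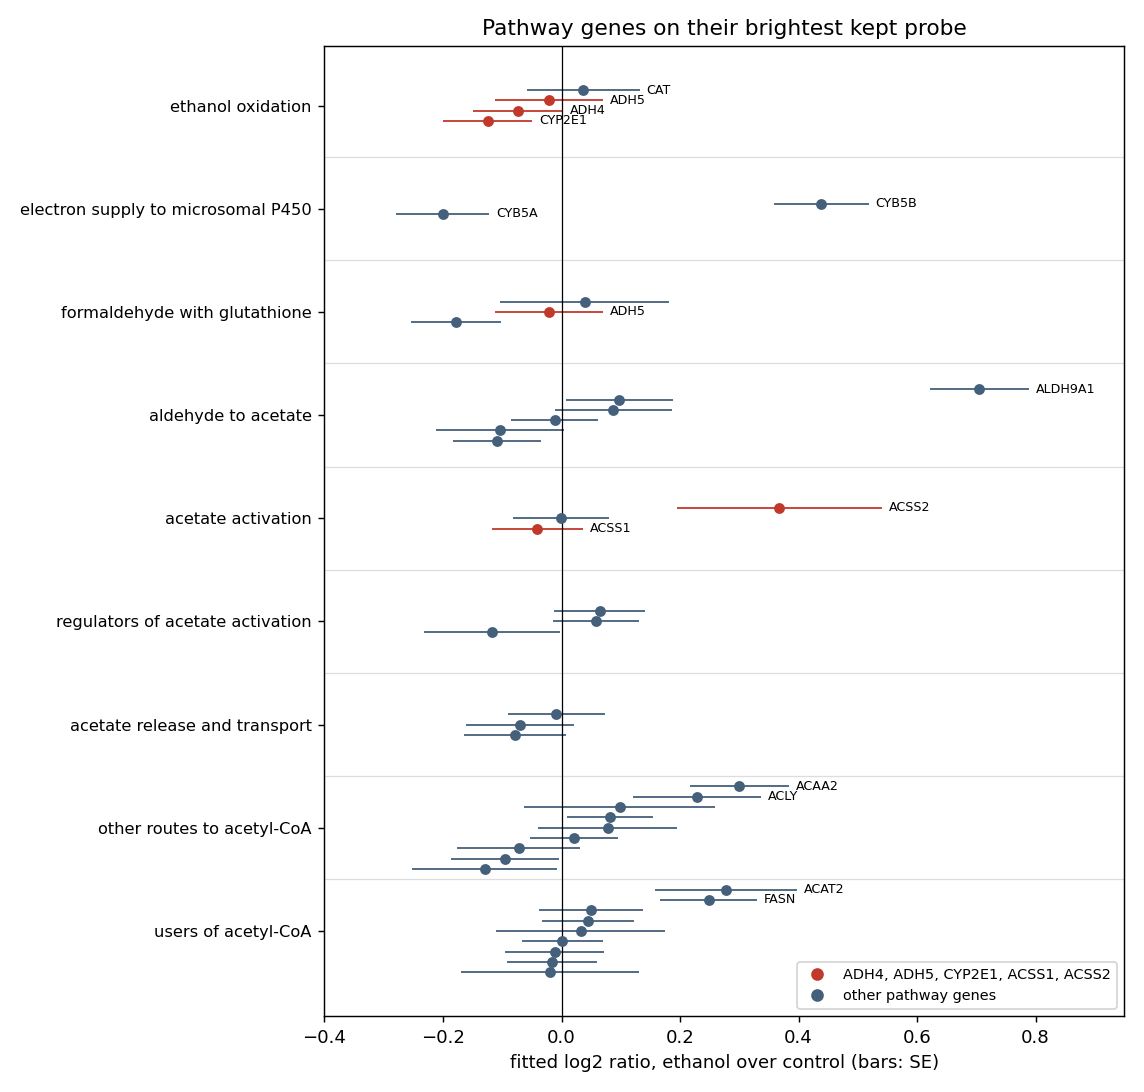
Fitted log2 ratio of ethanol over control, with its SE, for each measured pathway gene on its lead probe, grouped by step. The 5 member genes are red, CYB5B (0.44), ALDH9A1 (0.71) and ACSS2 (0.37) lie farthest to the right, and no gene was called after adjustment over all kept probes.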

How the data were processed

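Per the file headers, the deposited files of single arrays give the intensity of each spot and of its local background in Cy3 and Cy5, without normalization. The authors' series table was read as log2 ratios. Against loess-normalized Cy5 over Cy3 ratios of background-subtracted signals its columns correlated at 0.985 to 0.997, with slopes of 0.930 to 1.02 and column medians of -0.0138, -9.35e-05, 0.00378 and 0.00108, so its scale is log2 and its direction Cy5 over Cy3. Not given in the sources used here are its normalization and the scanner software. Another table, whose 4 columns match no single label, was left out.

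Median pixel signals were corrected with normexp (offset 50) and normalized by loess within each array in R 4.3.3 with limma 3.58.1, with weight 0 for 1426 control and other non-probe spots. Log ratios were fitted with ethanol orientation and a dye coefficient (2 residual degrees of freedom). Variances were moderated by limma over all kept probes (3.74 prior degrees of freedom), and p-values were adjusted by Benjamini-Hochberg over all kept probes. Single-channel levels were taken after Aquantile normalization. The fit was tested on simulated data. The number of arrays limits the precision. Up to 2 probe spots per array were saturated and were kept.

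Gene names are those of the platform annotation (1 symbol for 18121 probes, several for 0, none for 25673), and all 5 symbols are in the Sscrofa11.1 RefSeq table. The members, the pathway and marker lists and the rule for named genes (every member probe, list genes, and the 3 genes of highest r to each lead probe) were chosen with earlier results of these data known. Alternatives covered background correction, normalization, dye term, dim-probe filter, variance model, separate channels, the authors' ratios, mean pixel signals, averaged probes, the background threshold and each array left out.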

Additional observations from a re-analysis of the deposited data

Results flagged for a closer look

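The ratios of the 9 member probes and of 36 other pathway genes, 45 items in all, were searched for an array far from the other 3, and chance marks about 1 in 20 such groups, a rate that the dye part of the ratios can change. No member probe was marked, ACSS2 on array 1 included. ALDH1A3, a retinal dehydrogenase, had 0.43 on array 4, while arrays 1 to 3 gave -0.06 to 0.00. ALDH3A2, the fatty aldehyde dehydrogenase, had 0.39 on array 1, while arrays 2 to 4 gave -0.02 to 0.02.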

How the results depend on the processing

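No probe passed the adjusted threshold of limma under any of 15 alternatives, with 879 to 2704 probes at an unadjusted p under 0.05 against 1883 in the reported fit, and the smallest adjusted p was 0.0542, without array 3. The fitted ratios of ADH4, CYP2E1 and ACSS2 kept their sign in every alternative run. ACSS2 lay between 0.26 (mean pixel signals) and 0.43 (normexp offset 0) across settings with all arrays, and between 0.13 and 0.61 with 1 array left out. ADH5 changed sign when its 3 kept probes were averaged (0.021) and ranged from -0.12 to 0.080 with 1 array left out, and the ACSS1 range was -0.10 to 0.021. ADH5 probe 2 changed sign with mean pixel signals (0.0024) and ranged from -0.075 to 0.032. Normexp offset 0 moved ADH4 to -0.13, ACSS1 to -0.09 and ADH5 probe 3 to 0.23, all close to background, and the cause was not tested. The median ratio of all 41 measured pathway genes, reported as 0.0014, was 0.028 with median centring, 0.042 over probes above background in all channels, a setting that tests fewer genes, and 0.0019 to 0.024 with 1 array left out. The median of the ethanol oxidation list was -0.09 to -0.02 with 1 array left out. Of 72 member values 57 were above background, as were 57 with either other background threshold and 56 with mean pixel signals. In each case 7 of 9 probes were kept. No paired analysis was possible beyond the ratio itself, because each array holds 1 pair of pools and forms 1 replicate. Signal near background limits ADH4, ACSS1 and 3 of the 4 ADH5 probes.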
